A study of Myotis pilosus with 4 samples.

Results

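Small RNA of the bat Myotis ricketti was counted as short sequences (tags), and the most abundant tags outside the study's list of mature microRNAs (miRNAs) are described here. A tag was taken when it was 18 to 26 nt long, had 1000 or more reads summed over the 4 libraries and contained bases 2 to 17 of none of the 196 listed mature sequences. The members were thus chosen by their read counts, so that their abundance is a description and not a finding. Of 2315110 distinct tags, 2599 were this abundant and this long, 621 of them carried a listed sequence and 1978 did not. The 1978 unlisted tags fell into 749 groups that shared their first 16 nt, and the reads of a group are the sum over its member tags. Sequence groups are numbered by their reads, SG1 having the most.

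Each library was a single pool of 3 adult bats. HB and AB were whole brains of hibernating and of active bats (aroused, in the sample labels), and HA and AA were intra-abdominal white adipose tissue (WAT) of hibernating and of active bats. The bats were wild-caught and no genetic or drug treatment was applied. Active bats were caught in autumn and bats in deep hibernation at the end of the following winter, so that state and season cannot be told apart. Sequencing depth, in clean reads, was 12159756 (HB), 10007650 (AB), 11542470 (HA) and 11437337 (AA). With 1 library per condition there is no spread between replicates, no difference was tested, and the intervals given cover counting error only. Fewer cells of a type and less RNA per cell cannot be told apart in such bulk tissue.

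A miRNA is cut from a hairpin precursor by Drosha and Dicer, and either arm of the hairpin (5p or 3p) can be loaded into an Argonaute protein. The seed, bases 2 to 8, pairs with target mRNAs, and miRNAs with the same seed form a family. Fragments of ribosomal RNA (rRNA) and transfer RNA (tRNA) of the same size enter small RNA libraries as well, either as products of regulated cleavage or of RNA breakdown.

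No reference of miRNAs or other small RNAs was used here, so that names rest on general knowledge of mammalian sequences and were given to the leading tag of 194 groups. By these leading tags, 99 groups were well-known mammalian miRNAs that the list did not hold. They held 563 of the tags and 7894648 of the 14279839 member reads (55.3%). The 99 miRNAs had 85 different seeds, and 10 of these seeds, with 16 of the miRNAs, were also found in the list. The list writes the let-7 family as miR-7, and its names are kept here for listed sequences. The leading tag of each of the following groups is given 5′ to 3′ with the seed in capitals, because the values below turn on these miRNAs. The let-7 family acts in differentiation, and its unlisted members differed from each other after the seed.
let-7b-5p: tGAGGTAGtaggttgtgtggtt
let-7i-5p: tGAGGTAGtagtttgtgct
let-7e-5p: tGAGGTAGgaggttgtatagtt
The next set shows families whose seed was absent from the list, miR-30, miR-26, miR-125 and miR-192/215.
miR-30a-5p: tGTAAACAtcctcgactggaagct
miR-30e-5p: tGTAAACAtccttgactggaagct
miR-26a-5p: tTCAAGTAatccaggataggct
miR-26b-5p: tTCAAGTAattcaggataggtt
miR-125b-5p: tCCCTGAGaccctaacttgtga
miR-125a-5p: tCCCTGAGaccctttaacct
miR-192-5p: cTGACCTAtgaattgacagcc
miR-215-5p: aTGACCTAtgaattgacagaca
The third set holds miRNAs that were far more abundant in brain.
miR-128-3p: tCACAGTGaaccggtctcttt
miR-138-5p: aGCTGGTGttgtgaatca
miR-9-5p: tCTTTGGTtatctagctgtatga
miR-323a-3p: cACATTACacggtcgacct
miR-127-3p: tCGGATCCgtctgagcttggcat
miR-485-5p: aGAGGCTGgccgtgatgaatt
miR-1224-5p: gTGAGGACtcgggaggtgg
The last set holds miRNAs that were more abundant in WAT, and miR-27-3p, miR-103/miR-107-3p and miR-191-5p, which had many reads in both tissues.
miR-148a-3p: tCAGTGCActacagaactttgt
miR-152-3p: tCAGTGCAtgacagaacttgg
miR-21-5p: tAGCTTATcagactgatgttg
miR-10b-5p: tACCCTGTagaaccgaatttgt
miR-193a-3p: aACTGGCCtacaaagtccca
miR-451-5p: aAACCGTTaccattactgagtt
miR-27-3p: tTCACAGTggctaagttc
miR-103/miR-107-3p: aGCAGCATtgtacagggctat
miR-191-5p: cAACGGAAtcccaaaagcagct

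The other groups were of 4 kinds or stayed unassigned. Fragments of rRNA made up 332 groups with 32.6% of the member reads, 207 of them from 28S and 108 from 18S rRNA, and fragments of tRNA made up 72 groups with 4.19%. A further 120 groups were forms of a miRNA, with a shifted end or 1 changed base, 36 of them of a miRNA named here, 81 of a listed conserved miRNA and 3 of a listed bat-specific miRNA. Y RNA, a small cytoplasmic RNA bound by the Ro protein, gave 4 groups. The remaining 122 groups, with 4.29% of the member reads, were left unassigned. Of the rRNA groups, 255 were assigned because they shared 14 or more bases with a fragment already named, not by a leading tag of their own.

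The members held 29.9% of HB (95% exact Clopper-Pearson interval 29.89 to 29.94%), 32.4% of AB (32.38 to 32.44%), 33.5% of HA (33.43 to 33.49%) and 30.9% of AA (30.90 to 30.95%), always as a share of all clean reads. Their make-up differed more than their sum. The miRNAs named here held 16.6% (HB), 23.7% (AB), 12.5% (HA) and 18.0% (AA) of the clean reads, lower in the hibernating library of each tissue. The rRNA fragments held 8.69% (HB), 4.89% (AB), 16.98% (HA) and 10.01% (AA), higher in the hibernating library of each tissue. In HA the rRNA fragments exceeded the miRNAs named here, and in the other 3 libraries they did not. The abundant listed tags held 52.0% (HB), 54.1% (AB), 33.5% (HA) and 52.9% (AA), so that in HA the unlisted and listed tags were nearly equal.

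**Figure D1:**
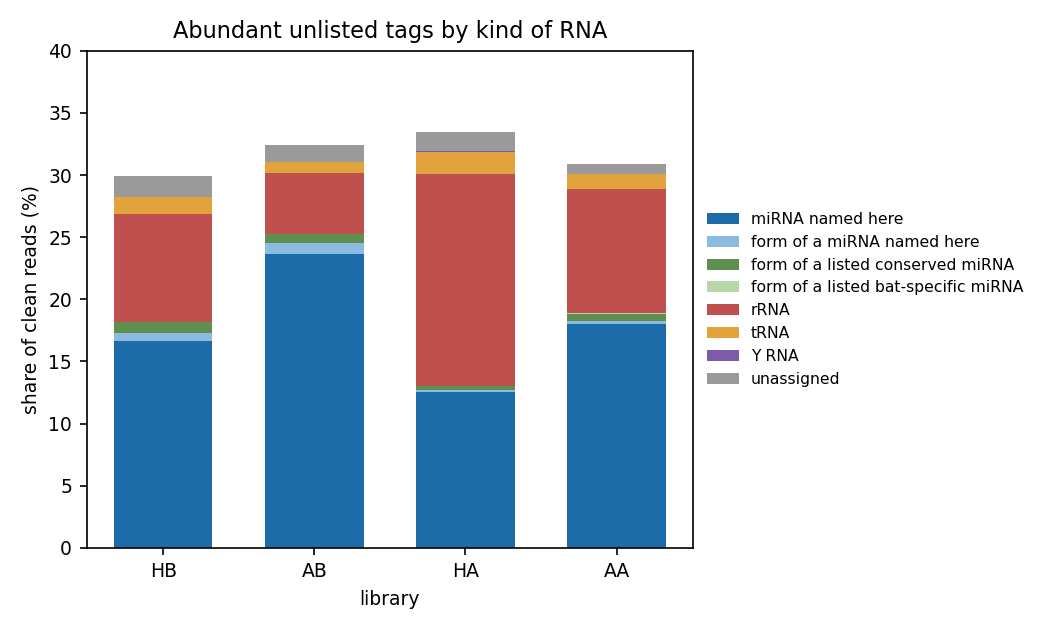
Share of all clean reads (%, y axis) held by the abundant unlisted tags in each of the 4 libraries (x axis), stacked by kind of RNA. The named miRNAs take 23.7% in AB and 12.5% in HA, and rRNA takes 4.89% in AB and 16.98% in HA.

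The members varied widely in abundance. A group had a median of 3023 reads, from 1002 to 1559999, and the 20 groups with the most reads held 59.3% of all member reads. A single tag made up 361 of the groups, and the richest group, let-7b-5p, held 39 tags. Where a group had more than 1 tag, its leading tag held a median of 50.8% of the reads. At least 1 read was found in every library for 720 of the 749 groups. The tag just inside the abundance limit had 1001 reads and the tag just outside it 999 reads.

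The lengths of the kinds overlapped. The miRNAs named here were most often 21 nt in HB (24.8% of their reads) and AB (27.5%) and 22 nt in HA (25.2%) and AA (29.9%). The rRNA fragments were most often 19 nt in HB (23.9%) and 21 nt in AB (24.9%), HA (20.5%) and AA (27.2%), so that length did not separate them from the miRNAs. The tRNA fragments were most often 18 nt in all 4 libraries, with 43.7% (HB), 37.7% (AB), 17.02% (HA) and 42.2% (AA). In HA 22 nt was nearly as frequent, at 16.3%, and 26 nt took 5.21%. At 26 nt the tRNA fragments of AA had 0.178%, and those of both brain libraries less. T (U in the RNA) was the first base of 43.4% of the named miRNA groups and of 14.2% of the rRNA groups.

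**Figure D2:**
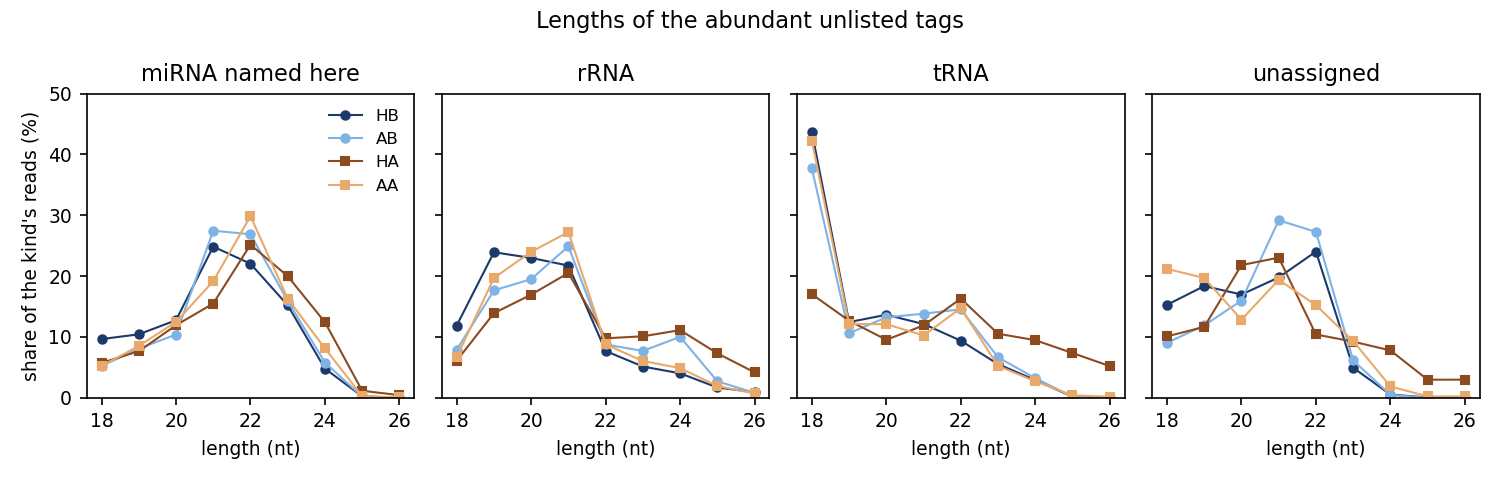
Share of the reads of each kind (%, y axis) by tag length (nt, x axis) for the named miRNAs, rRNA, tRNA and unassigned tags, with 1 line per library. The tRNA reads peak at 18 nt in all 4 libraries, with 43.7% in HB and 17.02% in HA, where they spread to 26 nt.

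Among the 20 groups with the most reads, 16 were miRNAs named here, 3 were 28S rRNA and 1 was tRNA. Reads of small RNA span the whole molecule, so that counts were not divided by length. Let-7b-5p had 174538 (HB), 239366 (AB), 239939 (HA) and 505173 (AA) reads, lower in the hibernating library of each tissue. The size of this difference depended on the tags counted, and the leading tag held 20.8% of the group reads. The log2 ratios of hibernating to active were -0.45 in brain and -0.74 in WAT for the group, and -1.77 and -2.04 for the leading tag alone. They were -0.01 and -0.11 for all tags with its first 16 nt, which also begin the listed miR-7b-5p and miR-7d-5p, so that these 5744413 reads are not those of let-7b-5p alone. MiR-103/miR-107-3p, named for a pair of family members with the same first bases that is known for its part in insulin sensitivity, had 182671, 209708, 118472 and 178481 reads in HB, AB, HA and AA. It differed little between tissues, with log2 ratios of brain to WAT of 0.45 in hibernating and 0.33 in active bats. MiR-30a-5p, of a family known in adipocyte differentiation, had 101843, 112488, 168546 and 239716 reads in the same order. MiR-191-5p had 31331, 44630, 66015 and 86088 reads, and miR-23-3p, which is encoded next to miR-27, had 26603, 15902, 60835 and 77055. All 3 had fewer reads in each brain library than in either WAT library. MiR-30d-5p had 47731, 87330, 59450 and 69483 reads and showed no such split.

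**Figure D3:**
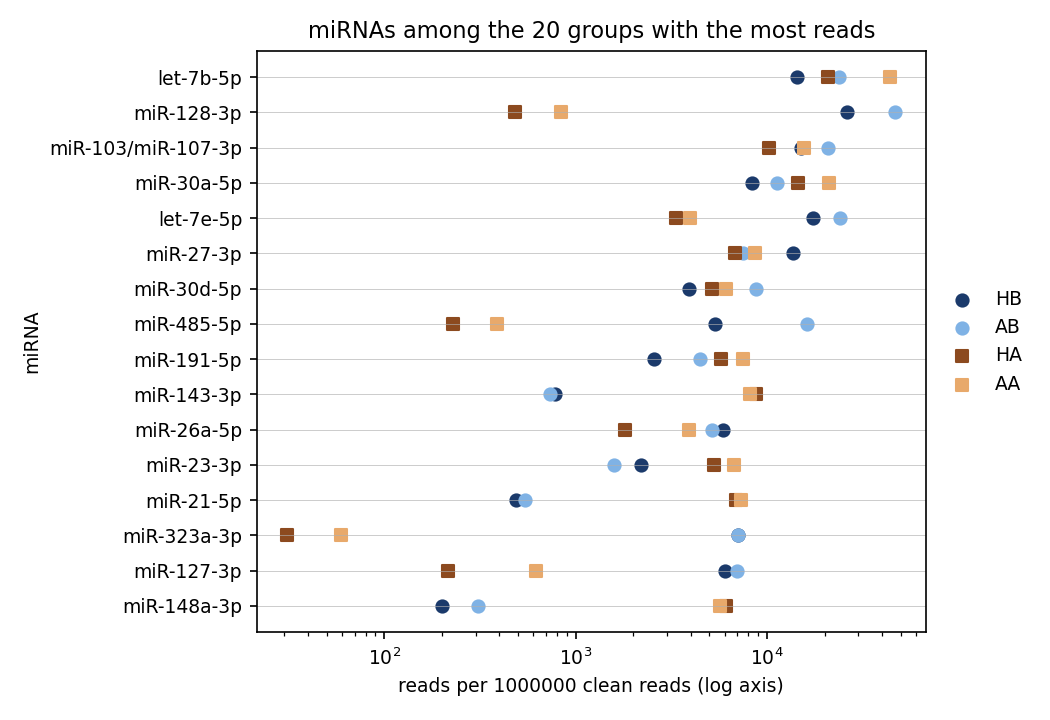
Reads per 1000000 clean reads (x axis, log scale) of the 16 named miRNAs among the 20 groups with the most reads, with 1 point per library (circles, brain; squares, WAT). For miR-128-3p, miR-485-5p, miR-323a-3p and miR-127-3p both brain libraries lie far above both WAT libraries, and for miR-143-3p, miR-21-5p and miR-148a-3p far below.

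Ratios between libraries were scaled by the trimmed mean of M-values (TMM) over the listed miRNAs and are given as log2 ratios. A group was counted as higher or lower when its log2 ratio was 1 or more in size. Between tissues, this was asked of the hibernating and the active pair of libraries together. In this count 106 of the 749 groups (14.2%) were higher in brain in both states, against 17% of all 851 groups of abundant tags, listed ones included. A further 186 groups (24.8%) were higher in WAT, against 25.4% of all groups. Since 749 of the 851 groups are those described here, the comparison is largely of the set with itself. The 102 groups of listed tags alone were higher in brain in 38.2% and higher in WAT in 27.5%, and this difference from the unlisted groups was not tested. With TMM over all abundant groups, each ratio of brain to WAT was higher by 0.48 in hibernating and 0.58 in active bats, with 132 groups higher in brain and 108 higher in WAT, so that the larger count passed from WAT to brain. Of the 99 named miRNAs, 42 were higher in brain and 23 higher in WAT in both states, and of the 332 rRNA groups 2 and 100 were.

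The named miRNAs included markers of neurons. MiR-128-3p was counted 317168 times in HB, 469324 times in AB, 5541 times in HA and 9562 times in AA. Its log2 ratio of brain to WAT was 5.67 in hibernating bats (interval 5.63 to 5.71) and 5.72 in active bats (5.69 to 5.75). MiR-138-5p, known in dendritic spines, had 30186 and 21936 reads in HB and AB and 75 and 63 in HA and AA. MiR-9-5p, a regulator of neural progenitors, had 21456 (HB), 21876 (AB), 49 (HA) and 38 (AA) reads. MiR-132-3p, which is induced by neuronal activity, had 1857, 2014, 37 and 113 reads in HB, AB, HA and AA, and miR-132-5p had 786, 833, 6 and 5. Thus the brain libraries were higher for each of these miRNAs in both states. All 8 of the brain marker miRNAs that were looked for, with miR-219 of oligodendrocytes among them, were found among the unlisted groups or the listed sequences, and together they had 904955 (HB), 1096908 (AB), 7325 (HA) and 12377 (AA) reads.

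Among the 5 groups with the highest ratios of brain to WAT by the smaller of the ratios of both states, 1 was a miRNA named here. This was miR-137-3p, known in neuronal development, with 2636 (HB), 2421 (AB), 3 (HA) and 2 (AA) reads, and with log2 ratios of 9.61 (8.06 to 11.9) and 10.34 (8.49 to 13.4). The other 4 were 1-base forms of the listed miR-124a-3p (SG164 and SG214) and miR-219-3p (SG213 and SG225), of neurons and oligodendrocytes, each with 0 to 5 reads in either WAT library. The parents had the same bias, and tags identical to the listed miR-219-3p had 39847 (HB), 49302 (AB), 12 (HA) and 18 (AA) reads.

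Many of the brain miRNAs lie in the imprinted DLK1-DIO3 region of mammals, a cluster of miRNAs expressed from the maternal allele and abundant in brain. This list of 22 groups was drawn up after the values were seen. All 22 were higher in HB than in HA by a log2 ratio of 1 or more, with a median of 4.79, against 26.6% of all abundant groups. In AB against AA 21 were so, with a median of 3.69, against 19.4% of all abundant groups. The exception was miR-379-5p at 0.78 in active bats, with 17860 reads in AB and 11127 in AA. MiR-323a-3p had 85308 (HB), 70547 (AB), 359 (HA) and 682 (AA) reads. MiR-127-3p had 73157, 70044, 2497 and 7084 reads in HB, AB, HA and AA. MiR-485-5p had 65111 (HB), 161663 (AB), 2639 (HA) and 4467 (AA) reads and was thereby lower in the hibernating library of each tissue. In total the 22 groups held 2.78% (HB), 3.99% (AB), 0.165% (HA) and 0.276% (AA) of the clean reads. Outside this list, miR-1224-5p, cut from a short intron without Drosha, had 13262, 29852, 126 and 208 reads. Some unassigned groups were also high in brain, SG30 with 40494, 23669, 1746 and 2932 reads, SG32 with 33700, 30269, 1884 and 2112, and SG53 with 25886, 13703, 176 and 426. Of the 122 unassigned groups, 18 were higher in brain and 36 higher in WAT in both states. Over all 851 abundant groups, 17% were higher in brain and 25.4% higher in WAT, and the difference from the unassigned groups was not tested.

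**Figure D4:**
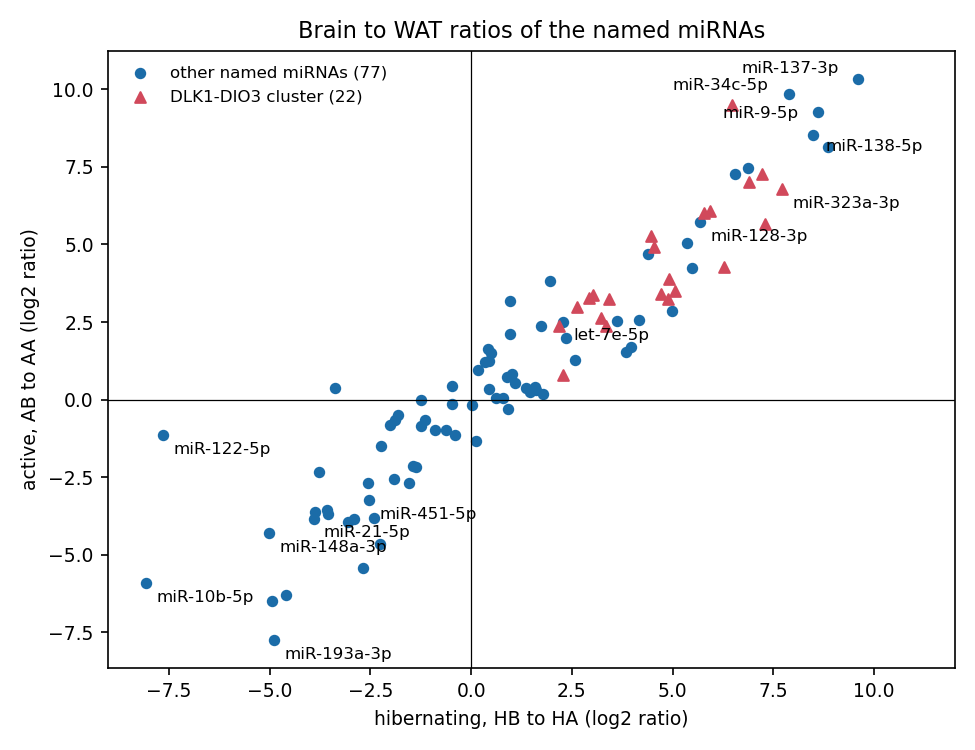
Log2 ratios of brain to WAT of the 99 miRNAs named here in hibernating bats (x axis, HB to HA) and in active bats (y axis, AB to AA), with the DLK1-DIO3 cluster as triangles. The 22 triangles lie to the right of 2, and miR-122-5p lies at -7.63 in hibernating and -1.15 in active bats.

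In WAT, the unlisted marker of vessels and stroma with the most reads was miR-143-3p, of smooth muscle and adipocytes, with 9517 (HB), 7377 (AB), 101367 (HA) and 93754 (AA) reads. Its log2 ratio of brain to WAT was -3.58 in hibernating and -3.57 in active bats. MiR-21-5p, which is common in stromal cells, had 5912, 5432, 79068 and 83424 reads in HB, AB, HA and AA, and miR-148a-3p, known in adipocyte differentiation and liver, had 2450, 3097, 70707 and 65091. All 3 were thus far higher in each WAT library. MiR-451-5p, the miRNA of red blood cells, had 5255 (HB), 3065 (AB), 27101 (HA) and 30798 (AA) reads, and miR-146b-5p, of immune cells, had 13225, 7838, 1954 and 3489, which were higher in brain. The markers of vessels and stroma (5 of 6 found) had 23948 (HB), 24191 (AB), 361001 (HA) and 686230 (AA) reads, of which the listed miR-199-3p had 6372, 8024, 156158 and 458628. Those of muscle (3 of 3) had 23683, 16059, 200948 and 208761 reads, mostly from the listed miR-1-3p. Those of blood and immune cells (4 of 6 found, not miR-150 and miR-223) had 18822, 11527, 31977 and 37347 reads, most of them from miR-146b-5p in both brain libraries and from miR-451-5p in both WAT libraries. The epithelial markers (1 of 3 found) had 124, 303, 299 and 28 reads. The part of these cell types in the ratios of tissue or state was not tested.

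The smaller markers of that list followed the same order of tissues. MiR-143-5p had 1533, 2899, 19830 and 38545 reads in HB, AB, HA and AA, miR-126-5p, of endothelium, had 250, 323, 1661 and 4971, miR-145-5p had 307, 90, 1742 and 4122, and miR-199b-5p had 19, 17, 515 and 1625. The 5 groups with the highest ratios of WAT to brain were miR-10b-5p, another form of it (SG279), a pair of 1-base forms of the listed miR-199-3p (SG186 and SG278) and the unassigned group SG555. SG555 had 5 (HB), 1 (AB), 1456 (HA) and 52 (AA) reads, mostly in HA. Its log2 ratio of brain to WAT in active bats, -5.60 (-10.9 to -3.06), rested on 1 read in AB. MiR-10b-5p, encoded in the HOXD cluster, had 66 (HB), 207 (AB), 15783 (HA) and 13346 (AA) reads, with log2 ratios of brain to WAT of -8.07 (-8.44 to -7.72) and -5.91 (-6.12 to -5.71). MiR-193a-3p had 110, 65, 2896 and 14921 reads and was thus lower in HA than in AA by a log2 ratio of -2.03. Its partner arm miR-193a-5p had 33, 42, 705 and 3530 reads with a ratio of -1.99.

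Between states, 352 of the 749 groups (47.0%) were higher in HB than in AB, against 43.0% of all abundant groups, and 40 (5.34%) were lower, against 6.11%. In WAT, 337 groups (45.0%) were higher in HA than in AA, against 41.2% of all abundant groups, and 57 (7.61%) were lower, against 9.17%. This background again consists mostly of the same groups. In the 102 groups of listed tags alone, whose miRNAs also set the scale, 13.7% were higher and 11.8% lower in HB, and 13.7% were higher and 21.6% lower in HA. The median log2 ratio of the members was 0.95 in brain and 0.87 in WAT, against 0.85 and 0.70 over all abundant groups. The scaling moved these values. With clean reads in place of TMM, each log2 ratio was lower by 0.29 in brain and 0.35 in WAT. With TMM over all abundant groups, each was lower by 0.74 in brain and 0.75 in WAT, the medians of the members became 0.21 and 0.12, and the split became 149 higher and 111 lower in HB and 181 higher and 168 lower in HA. The excess of higher groups thus depended on the scale.

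The higher groups were mostly rRNA. Of the 332 rRNA groups, 246 were higher and 2 lower in HB than in AB, and 247 were higher and 1 lower in HA than in AA. Their median log2 ratio was 1.43 in brain and 1.51 in WAT, and it was 1.14 and 1.16 with scaling by clean reads and 0.69 and 0.76 with TMM over all abundant groups, where 113 were higher and 12 lower in HB and 126 higher and 8 lower in HA. Of the 99 named miRNAs, 4 were higher and 11 lower in HB, and 8 were higher and 17 lower in HA. Their medians were -0.07 in brain and -0.41 in WAT, or -0.36 and -0.76 with scaling by clean reads. Scaling by the median of ratios gave 10 higher and 10 lower in HA, with a WAT median of -0.16. In HB it left 4 higher and 11 lower. With TMM over all abundant groups the medians were -0.81 and -1.16, with 1 higher and 40 lower in HB and 2 higher and 54 lower in HA. Fragments of rRNA can be a sign of RNA breakdown, whose part in these ratios was not tested. The paper reports a higher RNA integrity number for the hibernating pool than for the active pool of each tissue. The tRNA groups lay between, with medians of 0.61 and 0.55 that became -0.13 and -0.20 with TMM over all abundant groups.

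**Figure D5:**
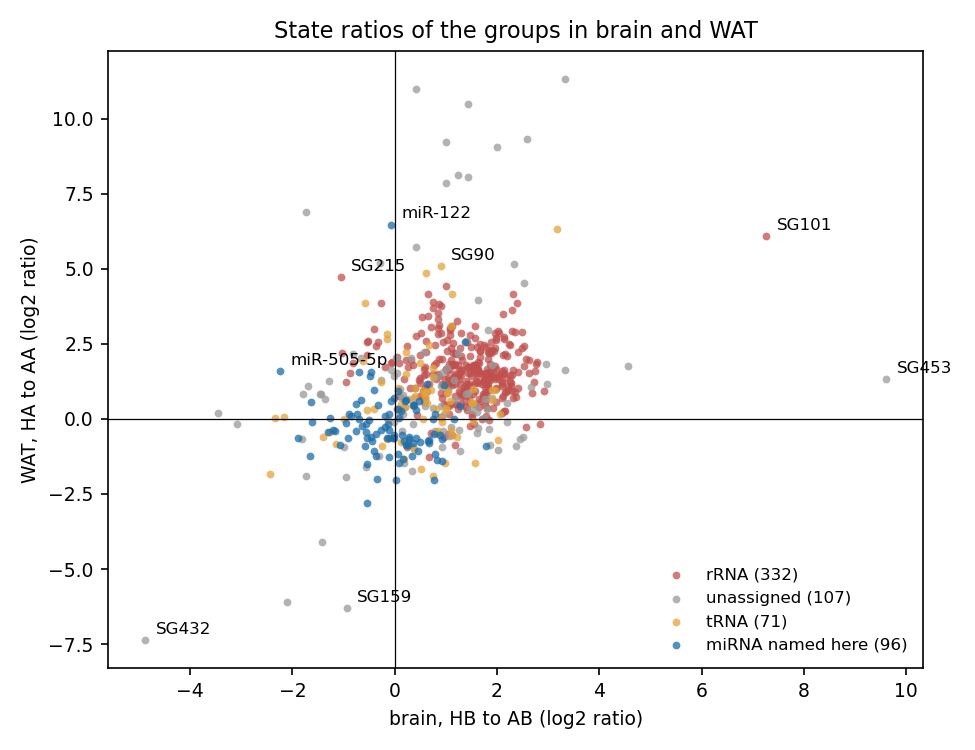
Log2 ratios of hibernating to active libraries in brain (x axis) and WAT (y axis) for the rRNA, tRNA, unassigned and named miRNA groups that had a ratio in both tissues, with 1 point per group. The rRNA groups cluster around 1.43 and 1.51, the named miRNAs around -0.07 and -0.41, and a column of unassigned groups reaches high values in WAT alone.

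The most abundant rRNA group, SG1, began at the 5′ end of 28S rRNA and had 365267 (HB), 173394 (AB), 539388 (HA) and 481950 (AA) reads. Brain gave a log2 ratio of state of 1.08 (1.08 to 1.09) and WAT one of 0.50 (0.49 to 0.50). These intervals leave out the scale and the choice of tags. The brain ratio was 0.79 with clean reads, 0.71 for the leading tag and 0.34 with TMM over all abundant groups, where the WAT ratio turned to -0.25. SG8, which started 1 base earlier with A, had 80307, 43429, 112388 and 136049 reads. SG12, from another stretch of 28S rRNA, had 26293 (HB), 46425 (AB), 114164 (HA) and 39614 (AA) reads, so that it was lower in HB than in AB (-0.81) and higher in HA than in AA (1.86). The tRNA group SG18, which ended in the CCA tail, had 58280, 27005, 24213 and 44210 reads, higher in HB (1.12) and lower in HA (-0.53). With clean reads the ratio of SG18 in brain was 0.83, and with TMM over all abundant groups 0.38.

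Named miRNAs with a state ratio of 1 or more in size included several of well-known function. Those that follow do not have the largest ratios in brain, where miR-145-5p stood at 1.78 and miR-320a-3p at -1.90. MiR-27-3p, known to restrain adipocyte formation, had 166520 (HB) and 75311 (AB) reads, a log2 ratio of 1.15 (1.14 to 1.17), whereas in WAT it had 78089 in HA and 98515 in AA, a ratio of 0.00. Its brain ratio fell short of 1 with clean reads (0.86) and with TMM over all abundant groups (0.41). MiR-485-5p was lower in HB at -1.30 (-1.32 to -1.29), and miR-1224-5p at -1.16. In both tissues the hibernating library was higher for miR-215-5p, a miRNA of the miR-192 family of liver, gut and kidney, with 3128 (HB), 1214 (AB), 1420 (HA) and 301 (AA) reads and ratios of 1.37 and 2.57, or 0.64 and 1.82 with TMM over all abundant groups. Its relative miR-192-5p had 10413, 6765, 20318 and 11512 reads and ratios of 0.63 and 1.16, or 0.34 and 0.81 with clean reads and -0.11 and 0.40 with TMM over all abundant groups. MiR-543-3p had 443, 1408, 17 and 50 reads and was lower in both tissues. Its ratios were -1.66 (-1.82 to -1.50) in brain and -1.22 (-2.11 to -0.40) in WAT, or -0.97 in WAT with the median of ratios.

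The named miRNA with the state ratio farthest from 0 was miR-122-5p, the main miRNA of hepatocytes, with 149 (HB), 158 (AB), 26323 (HA) and 375 (AA) reads. Its log2 ratio was 6.47 in WAT (6.32 to 6.62) and -0.08 in brain (-0.41 to 0.26), or 1.35 in brain for its leading tag alone. It was the single liver marker that was looked for and was far higher in HA than in the other 3 libraries, and the part of liver RNA in the other values of HA was not tested.

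The tRNA fragments of HA differed from those of the other libraries. Groups ending in CCA numbered 56 and had median log2 ratios of 0.55 in brain and 0.34 in WAT. The other 16 tRNA groups had medians of 0.75 and 1.81. SG90, from the 5′ end of a glycine tRNA, had 122 (HB), 66 (AB), 17463 (HA) and 651 (AA) reads, a log2 ratio in WAT of 5.08 (4.97 to 5.20). SG82 had 105, 159, 19539 and 1696 reads, and SG98 had 81, 91, 13856 and 2445, with ratios in WAT of 3.86 and 2.84. These 3 groups were each far higher in HA than in any other library. Of Y RNA, SG314 had 1906, 1901, 95 and 211 reads and SG494 had 59, 190, 102 and 1592, so that one was high in both brain libraries and the other in AA.

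The extreme state ratios were mostly those of unassigned groups. In brain, the 5 highest were SG453 with 2320 (HB), 0 (AB), 6 (HA) and 0 (AA) reads, SG530 with 1665, 0, 2 and 0, SG101 of 28S rRNA with 6891, 45, 8720 and 163, SG209 with 5268, 226, 948 and 350, and SG420, a 1-base form of the listed miR-7d-5p, with 2179, 128, 117 and 151. Against a floor of 3 reads for the count of 0 in AB, the log2 ratios of SG453 and SG530 were at least 9.60 and 9.13 for the counts seen. With TMM over all abundant groups they were at least 8.86 and 8.39. With counting error the lower limits under the main scaling were 9.30 and 8.83. The 5 lowest were SG432 (8, 236, 11 and 2273 reads), SG596 (18, 199, 548 and 598), SG694 (16, 136, 397 and 558), and the tRNA groups SG474 (89, 488, 280 and 1249) and SG371 (218, 1105, 812 and 1008). SG432 was low in the hibernating library of both tissues, with log2 ratios of -4.87 and -7.35, or -2.85 and -5.99 with all tags of its 16 nt counted.

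In WAT, the 5 highest ratios belonged to SG238 with 2 (HB), 0 (AB), 5535 (HA) and 1 (AA) reads, SG189 with 1, 0, 7801 and 2, SG181 with 30, 0, 8125 and 4, SG486 with 2, 0, 1981 and 1, and SG541 with 4, 0, 1598 and 1. Their log2 ratios ran from 10.98 to 12.77 but rested on 1 to 4 reads in AA, and that of SG238 had an interval of 10.3 to 18.1. Only a count of 0 was raised to the floor of 3 reads, so that 1 read in AA gave a higher ratio than 0 reads. The ranking depends in part on this rule. With all tags of the 16 nt counted, SG181 was at 8.47 and SG486 at 7.62. The 5 groups were part of a wider set of 31 groups with 95% or more of their depth-scaled reads in HA, 26 of them unassigned, 4 of tRNA and 1 a miRNA, miR-122-5p. These groups held 137059 reads, 1.19% of the clean reads of HA. No genome was searched, and whether the unassigned tags came from the bat or from another organism was not tested, so that their ratios are differences between libraries and may not be of bat RNA. In HB there were 2 such groups, SG453 and SG530, and in AB and AA none. Tags were chosen by their reads summed over the libraries, so that a group found almost only in 1 library was taken for its reads there. The high ratios of such groups thus follow in part from the choice of tags, by a rule that was the same for each library. The matching counts over all abundant groups are not given here. The 5 lowest ratios in WAT were SG432, SG159 with 177, 341, 90 and 8932 reads, SG601 with 203, 877, 3 and 259, SG576, a 1-base form of the listed miR-378-3p, with 12, 8, 60 and 1361, and SG595 with 24, 65, 56 and 1224. SG159 and SG595 were thus high in AA.

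The 2 arms of a hairpin could be set side by side for 18 miRNAs, 10 with the unlisted 5p arm against the listed 3p arm and 8 with both arms unlisted. Here all tags with the first 16 nt of the arm were counted. Of the 10 pairs with a listed 3p arm, the unlisted 5p arm had more reads over the 4 libraries in 6. It had fewer in 4, which were miR-22, miR-139, miR-151 and miR-193b. For miR-193b this came from AA (1098 against 2458). In HB (74 against 54), AB (218 against 39) and HA (835 against 777) its 5p arm had more reads. For miR-532, among the 6, the 5p arm had fewer reads in HB (266 against 278) and AA (624 against 699). In the predicted duplex of the arms (RNAduplex), 10 to 19 bases were paired. MiR-138-5p had 56918 reads over the 4 libraries and the listed miR-138-3p had 330, a ratio of 172. MiR-181a-5p had 44599 reads against 932 for the listed miR-181a-3p, a ratio of 47.9, and miR-9-5p had 49496 against 16377 for the listed miR-9-3p. For these 3 miRNAs the arm outside the list had more reads. No genome was searched, so that reads of an arm from several hairpins were not told apart. The ratios may thus not be those of a single hairpin. Among the 10 pairs with a listed 3p arm, the widest gap in the reverse direction was that of miR-22. It had 4803 reads of the 5p arm against 123249 of the listed 3p arm. In miR-139 the 5p arm had 3647, 4458, 2265 and 4743 reads in HB, AB, HA and AA and the listed 3p arm 4214, 10674, 2534 and 4888, so that the arms were close in HB, HA and AA and apart in AB.

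Forms with 1 changed base made up 94 groups. Positions are counted from 1 at the 5′ end, with the base of the parent first. The kind with the most groups was A-to-C, with 29 groups and 136691 reads, followed by A-to-G with 20 groups and 75146 reads. These counts include SG567 (1464 reads), taken as A11G of the listed miR-1-3p. Its first 16 nt are also those of the listed miR-206-3p, so that its parent is not certain. Among those with a small share are the following. As a share of the parent's tags, counted by its first 16 nt, A15C in the listed miR-100-5p (SG100) stood at 0.595% in HB and 0.926% in AA, and A3C in the listed miR-124a-3p (SG224) at 0.394% in HB and 0.181% in AB.

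Of the 82 forms of miRNAs, 6 exceeded 5% of the parent in at least 1 library and 2 did in all 4. These 2 were A5G in miR-411-5p and T13G in miR-485-5p. A5G in miR-411-5p (SG132), inside the seed, stood at 23.8% (HB), 21.2% (AB), 11.0% (HA) and 22.7% (AA) of its parent. The same change in miR-379-5p (SG734), of the same cluster, was rarer, at 1.64% (HB), 1.87% (AB), 0.135% (HA) and 0.121% (AA). As background, this base is a known site of adenosine-to-inosine editing in both miRNAs in mammals, and inosine is read as G. T13G in miR-485-5p (SG93) stood at 7.49% (HB), 7.17% (AB), 7.62% (HA) and 7.66% (AA), nearly equal in all 4 libraries. A16G in the listed miR-378-3p (SG76) stood at 64.1% (HB), 30.7% (AB), 4.50% (HA) and 0.744% (AA), while the parent had 13951, 19787, 71433 and 836904 reads. SG76 itself, with 8946, 6066, 3218 and 6230 reads, varied far less between libraries than its parent did. A14G in the listed miR-1-3p (SG292) stood at 8.03% (HB), 8.67% (AB), 0.0750% (HA) and 0.0698% (AA). The other 2 were forms of miR-219-3p, SG213 and SG225, which passed 5% in WAT libraries with few reads of the parent or, for SG213, in HB at 5.02%.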

How the data were processed

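Small RNA of 4 pools was gel-selected and sequenced on an Illumina/Solexa instrument. Reads with adapter or poor quality were dropped by the authors, who deposited 1 table per library that gives the length and the raw count of each unique sequence. The tags are 18 to 30 nt long. No genome was used here, and names rest on general knowledge; other groups were assigned by 1 changed base or by a shared stretch of 14 nt, extended through rRNA and tRNA. The members and lists were chosen with earlier results of these data known. Groups named in the text are the 20 with the most reads, the 5 highest and 5 lowest in each tissue by state and between tissues, groups with opposite state ratios of 1 or more in both tissues, and marker miRNAs; others, and the DLK1-DIO3 list, were chosen after their values were seen. Ratios were scaled by TMM in edgeR 4.0.16 over the listed miRNAs, counting identical tags, with exact Clopper-Pearson intervals. A count of 0 was set to a floor of 3 reads, and no ratio was given where both counts were 3 or fewer. A floor of 3 reads is 2.47e-05% of the clean reads in HB and 3.00e-05% in AB. Intervals and floors cover counting error only, since reads lack molecular identifiers. No test was run. The code was tested on simulated counts of 851 groups with 200 changed 4-fold: 196 were recovered for HB to AB and 196 for HA to AA, and 2 and 7 unchanged groups were counted. Alternatives covered the read minimum, the rule for unlisted tags, the grouping, the scaling (clean reads, DESeq2 1.42.0 median of ratios, TMM over all abundant groups), the size and thinning. Arms were paired with RNAduplex of ViennaRNA 2.7.2.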

Additional observations from a re-analysis of the deposited data

Results flagged for a closer look

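In 9 of the 749 groups the state ratios were 1 or more in size in both tissues and pointed in opposite directions. The matching count over all abundant groups is not given here. This difference between tissues was not tested, since each ratio rests on 1 pair of libraries. Each of the 9 fell below 1 in at least 1 tissue under another scaling or counting rule. The value of each that lay nearest to 0 stood in brain at -0.66 (SG215), -0.60 (SG295), -0.73 (SG537) and 0.83 (SG603), and in WAT at 0.34 (SG375), -0.15 (SG386), 0.83 (SG459) and 0.50 (SG665), while SG691 turned to 0.46 in WAT. In 6 of them HB was below AB and HA above AA. MiR-505-5p (SG459), which had 120, 570, 1112 and 469 reads in HB, AB, HA and AA, had log2 ratios of -2.24 in brain and 1.58 in WAT. The 28S rRNA group SG215 (34, 71, 6127 and 292 reads) had -1.05 and 4.73, and the 18S rRNA group SG295 (190, 391, 2931 and 812 reads) had -1.03 and 2.19. The unassigned group SG375 (109, 354, 1608 and 952 reads) had -1.69 and 1.09, SG537 (3, 10, 1587 and 17 reads) had -1.73 and 6.88, and SG665 (123, 301, 483 and 256 reads) had -1.28 and 1.25. The interval of SG537 in brain, -4.23 to 0.23, includes 0.

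In the other 3, HB was above AB and HA below AA. The tRNA group SG603 (618, 210, 114 and 394 reads) had 1.57 and -1.45, and the unassigned groups SG386 (1362, 567, 279 and 735 reads) and SG691 (672, 166, 79 and 204 reads) had 1.27 and -1.06, and 2.03 and -1.03.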

How the results depend on the processing

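The sources of error are 1 pool per condition, names without a reference and a scale set by the listed miRNAs. The cause of each shift below was not tested unless the setting itself removes tags or groups. The number of groups and the 6 counts stayed within 1.5 times the values given under the grouping by 14 or 18 nt, the leading tag alone, all tags with the 16 nt, the median of ratios, thinning, either rule for unlisted tags and whole intervals beyond 1, except as follows.

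With at least 500 reads there were 3585 tags in 1317 groups, with 631 higher and 80 lower in HB, 598 higher and 105 lower in HA, 172 higher in brain and 320 higher in WAT, and with shares of 32.4% (HB), 34.1% (AB), 37.1% (HA) and 32.99% (AA). With at least 2000 reads there were 972 tags in 386 groups, with 169 higher and 23 lower in HB, 166 higher and 35 lower in HA, 59 higher in brain and 109 higher in WAT, and with shares of 26.7%, 30.2%, 29.1% and 28.4%. The shares in HB, AB, HA and AA were 28.8%, 30.3%, 31.7% and 27.7% when a listed tag was known by bases 1 to 16, 25.6%, 26.6%, 30.1% and 24.5% when 1 mismatch was allowed, and 29.4%, 32.1%, 32.7% and 30.5% after thinning to equal depth. HA had the highest share in each of these but the limit of 2000 reads, where AB had.

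Scaling by clean reads gave 100 groups lower in HA, and the split became 261 higher against 59 lower in brain and 267 against 100 in WAT. With TMM over all abundant groups 149 were higher and 111 lower in HB, 181 higher and 168 lower in HA, and 108 higher in WAT than in brain against 132 higher in brain. A size of 2 gave 88 higher and 11 lower in HB, 144 higher and 13 lower in HA and 71 higher in WAT. Leaving out the forms of named or listed miRNAs, an alternative chosen after seeing the data, gave 64 groups higher in brain. State ratios of 1 or more in size numbered 62 in the groups named by a rule (the most abundant, the extremes, the opposite ratios and the markers). Of these, 61 kept their sign under all scalings and counting rules tried and 41 also stayed at 1 or more. The exception was SG691 in WAT, at 0.46 when all tags with its 16 nt were counted. Of all 130 state ratios of the groups named by a rule, 38 changed sign under at least 1 of these alternatives. Groups named after their values were seen are not in these counts. Among them, miR-192-5p in brain went from 0.63 to -0.11 with TMM over all abundant groups.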

Other observations

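The 28S rRNA group SG101 begins with an extra C before the 5′ end of SG1. All tags with this C had 7188 (HB), 49 (AB), 9019 (HA) and 171 (AA) reads, which is 1.97%, 0.0281%, 1.67% and 0.0354% of the tags with the end of SG1. The same stretch after A had 80304, 43462, 112865 and 135877 reads, 22.0%, 24.9%, 21.0% and 28.1%. The form with C was thus high in both hibernating libraries and near the level of the forms with G (0.0139 to 0.0248%) or T (0.0164 to 0.0323%) in both active ones.

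The form G4T of the listed miR-7d-5p, SG420, led to a look at G-to-T at position 4 in the 12 miRNAs with G at that position and 100000 reads or more, counted as the listed sequence itself or, for a miRNA named here, as its group. Tags were pooled by their first 16 nt. Where the parent had 10000 or more reads in the library, the changed tags took 0.221 to 0.440% of it in HB (11 miRNAs), 0.0170 to 0.0404% in AB, 0.0163 to 0.144% in HA and 0.0144 to 0.108% in AA. The lowest value in HB exceeded the highest in each other library. The highest values of HA and AA were those of miR-148a-3p.

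Some tags hold a miRNA with its ends joined, the last bases standing before the first. Such rotated forms, with 6 or more bases on either side of the joint, were found for 103 of 216 conserved miRNAs searched, as 951 tags with 5833 (HB), 4725 (AB), 6795 (HA) and 2411 (AA) reads, and 3 of these tags were members. MiR-26a-5p had 2259, 2000, 263 and 222 such reads, 2.39% of its own reads. MiR-21-5p had 163, 142, 2676 and 882, 2.16% of its own, and the listed miR-29-3p had 1438, 648, 329 and 73, 0.0929% of its own.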
